A study of Homo sapiens with 18 samples.

Results

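The expression of 10 genes that make, recycle or consume NAD was followed in T47D, a luminal breast cancer line that carries the estrogen receptor, with and without the PARP inhibitors niraparib and olaparib. The genes were taken by name, by a choice made with earlier results of these data known, out of 58884 gene identifiers in the deposited counts: NAMPT, NMNAT1, NMNAT2, NMNAT3, NADSYN1, NAPRT, NMRK1, QPRT, NNMT and SIRT1. Of these, 9 could be tested, and NNMT was left out of the tests because too few reads were counted on it. RNA was sequenced in 18 libraries that fall into 6 groups of 3. WT cells (the T47D AAV line) and PARP1 KO cells (the T47D JL line) were each kept for 48 hours with DMSO, with niraparib at 10 μmol/L or with olaparib at 10 μmol/L. The knockout is represented by 1 line, so the loss of PARP1 and any other difference between the lines cannot be told apart. The study's methods describe 3 dishes per condition, without tying a library to a dish, so p-values measure the spread between libraries.

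NAD is the electron carrier of central metabolism and also a substrate that PARP enzymes and sirtuins break down, releasing nicotinamide. Mammalian cells rebuild it from nicotinamide, from nicotinic acid, from nicotinamide riboside or from tryptophan. PARP1 is among the main consumers of NAD after DNA damage, and blocking it spares NAD. The 10 genes fall into roles along these routes. NAMPT is the rate-limiting enzyme of the nicotinamide salvage route, and NMRK1 phosphorylates nicotinamide riboside. The products of both are completed to NAD by NMNAT1 in the nucleus, NMNAT2 in the Golgi and cytosol, and NMNAT3 in mitochondria, which attach the adenylyl group. NAPRT opens the route from nicotinic acid, QPRT takes the tryptophan route to the same intermediate, and NADSYN1 amidates the product of these routes to NAD. NNMT methylates nicotinamide and so withdraws it from salvage. SIRT1 is a nuclear deacetylase that consumes NAD.

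Library totals lay between 28890837 and 52251288 counts. PARP1 itself had levels of 347, 373 and 368 CPM (counts scaled to a common library size, with TMM factors over the 18 libraries) in the WT DMSO libraries and of 25, 24.2 and 25 CPM in the PARP1 KO DMSO libraries, a difference of -3.87 on the log2 scale (standard error 0.058, adjusted p = 1.7e-34, edgeR). With the drugs it had 291 to 348 CPM in WT and 22.9 to 27.6 CPM in PARP1 KO libraries, so all 18 libraries match their genotype labels. All 9 luminal breast markers checked were present, with mean levels from 149 to 3461 CPM. Their summed level was 13009 to 13630 CPM in WT DMSO, 9463 to 10473 with niraparib and 10359 to 10801 with olaparib. In PARP1 KO it was 14480 to 15169 CPM with DMSO, 13443 to 13737 with niraparib and 12422 to 13412 with olaparib. It was thus lower with either drug in both genotypes. Markers of leukocytes (5 of 5) and endothelium (3 of 3) were below 1 CPM, as were 4 of 5 fibroblast markers (the exception, COL1A1, at 110 CPM) and 2 of 3 basal markers (the exception, TP63, at 1.71 CPM). TP63 rose with niraparib in WT cells, from 1.36 to 1.45 CPM with DMSO to 2.32 to 2.54 CPM (0.78 on the log2 scale, adjusted p = 0.0031, edgeR), while KRT5 and KRT14 stayed below 1 CPM. The part of the lower luminal marker level and of TP63 in the results on the NAD genes was not tested. In bulk RNA, fewer cells with a transcript and less of it in each cell cannot be told apart.

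On GRCh38 the 9 tested members lie on 8 chromosomes. NAMPT is at chr7:106248298-106286326, NMRK1 at chr9:75060573-75088217 and NMNAT3 at chr3:139560180-139678017, all on the minus strand. Chromosome 1 holds NMNAT1 (chr1:9943428-9985501, plus strand) and NMNAT2 (chr1:183248237-183418380, minus strand). On the plus strand are NADSYN1 (chr11:71453109-71524107), QPRT (chr16:29679008-29698699), NNMT (chr11:114257787-114313285) and SIRT1 (chr10:67884656-67918390), and NAPRT is on chromosome 8. The counts cover the exons of each gene.

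The members differed widely in level. Scaled to the length of exon that no other gene shares, QPRT had the highest level at a mean of 41.8 CPM per kb over the 18 libraries, followed by SIRT1 at 9.49, NMRK1 at 7.06 and NAMPT at 6.71 CPM per kb. NMNAT1 stood at 3.41, NADSYN1 at 2.67 and NAPRT at 1.03 CPM per kb. NMNAT3 (0.883 CPM per kb) and NMNAT2 (0.762 CPM per kb) were the lowest of the tested members on this scale. The length used is that of all annotated exon, not of the transcripts expressed, and was 12702 bases for NMNAT3 and 4174 for NMNAT1. Before scaling, NMNAT1 had a mean of 14.2 CPM, NMNAT3 of 11.2 and NMNAT2 of 5.29 CPM. The order of the members in numbers of transcripts is therefore not settled. NNMT was close to absent, with 3 counts in all, of which 1 fell in WT olaparib library 3 and 2 in PARP1 KO DMSO library 3. A count of 3 in a library, taken as the limit that a count of 0 allows, corresponded to 0.054 to 0.105 CPM, so any NNMT expression lay below that level in the other 16 libraries. Exon that a member shares with another gene yields no counts, which touches 15.7% of the exon length of QPRT, 9.46% of NMNAT1 and 2.16% of NMNAT3.

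**Figure D1:**
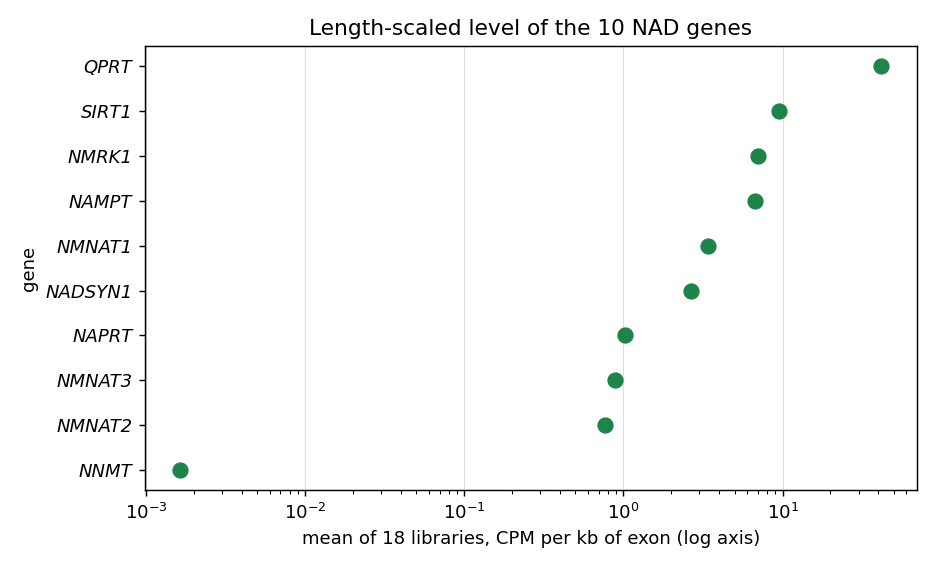
Mean level of each of the 10 NAD genes over the 18 libraries, in CPM per kb of exon on a log axis. QPRT lies at 41.8, SIRT1, NMRK1 and NAMPT between 6.71 and 9.49, and NNMT at 0.00164 CPM per kb.

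The promoters of NAMPT, SIRT1 and NMNAT2 are shown because the results turn on these members: NAMPT on olaparib in both genotypes, SIRT1 on a niraparib response that depended on genotype, and NMNAT2 on the only change of a member that passed the test at more than 1.5-fold. Each line gives the 250 bases before the RefSeq start site (GRCh38.p14), 5′ to 3′ on the strand of the gene. NAMPT lies on the minus strand, with its window at chr7:106284984-106285233, 1343 bases inside the 5′ end of the gene as annotated in Ensembl. SIRT1 lies on the plus strand (window chr10:67884406-67884655) and NMNAT2 on the minus strand (window chr1:183418381-183418630). Capitals mark matches to the E-box CACGTG, which reads the same on both strands, and to the GC box GGGCGG or its reverse complement CCGCCC.
NAMPT: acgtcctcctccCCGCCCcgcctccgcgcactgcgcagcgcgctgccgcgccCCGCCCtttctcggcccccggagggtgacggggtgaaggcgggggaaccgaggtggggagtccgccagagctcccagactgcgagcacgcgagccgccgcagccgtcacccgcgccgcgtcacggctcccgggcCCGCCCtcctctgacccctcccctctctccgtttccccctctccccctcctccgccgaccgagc
SIRT1: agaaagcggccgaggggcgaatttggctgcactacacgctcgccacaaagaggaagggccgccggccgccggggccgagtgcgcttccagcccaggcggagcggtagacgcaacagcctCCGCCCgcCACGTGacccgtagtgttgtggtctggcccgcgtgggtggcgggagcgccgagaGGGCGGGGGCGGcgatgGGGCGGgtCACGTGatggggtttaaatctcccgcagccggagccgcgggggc
NMNAT2: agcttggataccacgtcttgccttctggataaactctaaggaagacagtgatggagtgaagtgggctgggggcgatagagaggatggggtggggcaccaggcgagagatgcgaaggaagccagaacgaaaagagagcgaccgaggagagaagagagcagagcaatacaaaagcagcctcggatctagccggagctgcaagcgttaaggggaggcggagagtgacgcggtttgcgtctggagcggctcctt

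The SIRT1 window held 2 E-boxes and 4 GC boxes, the NAMPT window 3 GC boxes and no E-box, and the NMNAT2 window neither motif. Of the other members with an entry, NADSYN1 had 5 GC boxes, NMNAT3 had 3, NMNAT1 had 1 and QPRT had none, and none of these 4 held an E-box. Among the 35116 windows of all genes, 6.34% held an E-box and 0.535% held 2 or more, while 42.6% held a GC box and 7.63% held 4 or more. RefSeq windows matched 7 of the 10 members, and NAPRT, NMRK1 and NNMT are named only. The windows of NAMPT (77.2% G or C) and SIRT1 (72% G or C) were richer in these bases than that of NMNAT2 (56.8%), against a median of 58% over all windows.

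A member was taken to have risen or fallen at an adjusted p below 0.05 (edgeR quasi-likelihood test, Benjamini-Hochberg over all genes tested). With niraparib in WT cells, 4 of the 9 tested members passed, with NMNAT1, NMNAT2 and NMNAT3 higher and NMRK1 lower, where 38% of all 22446 genes tested passed. With olaparib in WT cells, 3 passed (NAMPT, NMNAT3 and SIRT1, all higher), against 19% of all genes. In PARP1 KO cells, 0 of 9 passed with niraparib (0 also with DESeq2), against 0.109% of all genes, and 1 passed with olaparib (NAMPT, higher), against 8.29%. With niraparib there, 1 of 9 passed at an unadjusted p below 0.05 in edgeR, against 9.14% of all genes. The 2 drugs of a genotype were compared with the same DMSO libraries. With 9 genes tested beside shares of 38% and 19% of all genes, the WT counts are not read as a result about the members as a set. The median log2 fold change of the 9 members was 0.10 with niraparib and 0.08 with olaparib in WT cells, beside -0.03 and -0.02 over all genes tested, and 0.07 and 0.03 in PARP1 KO cells, beside 0.01 and 0.01 over all genes.

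**Figure D2:**
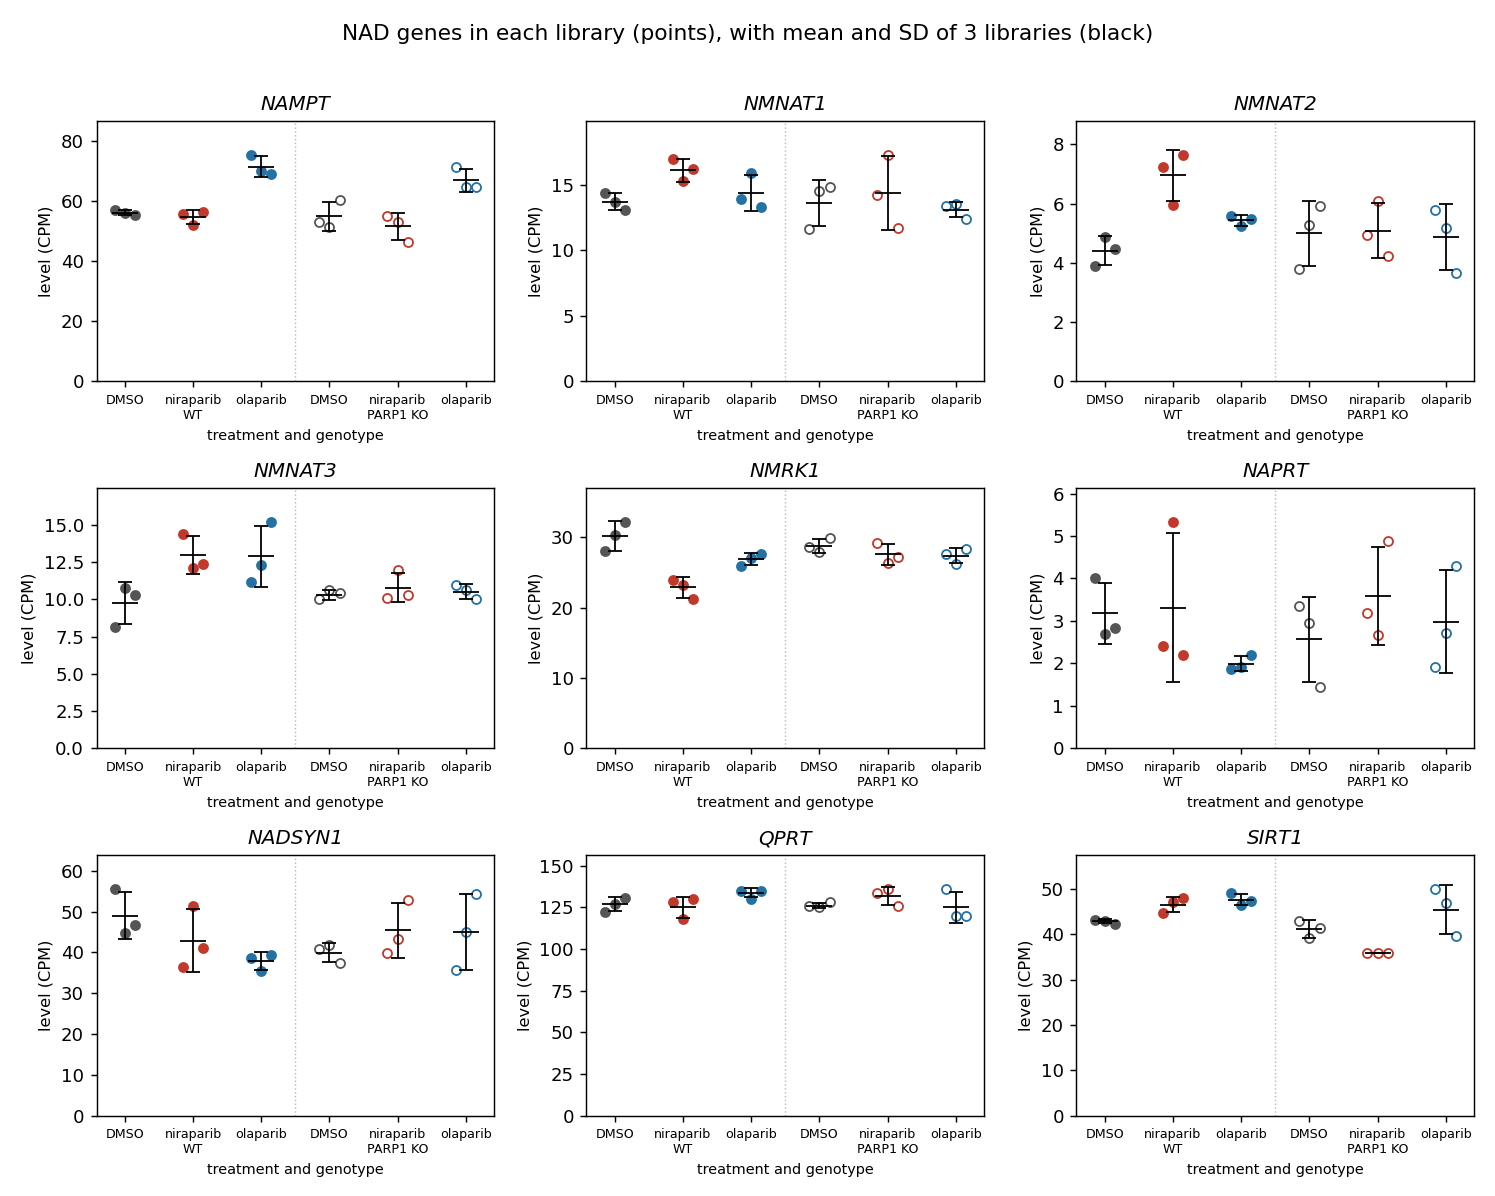
Level in CPM of the 9 tested members in each of the 18 libraries (filled points WT, open points PARP1 KO), with the mean and SD of the 3 libraries of each group in black. NAMPT is highest with olaparib in both genotypes, NMNAT2 is highest and NMRK1 lowest with niraparib in WT cells, and relative to their mean the 3 libraries of a group lie farthest apart in NAPRT.

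Changes were small for most members. At an adjusted p below 0.05 and more than 1.5-fold, 1 member passed with niraparib in WT cells (NMNAT2, 13.8% of all genes), and 0 passed with olaparib (4.04%) or between the drugs (8.95%). In PARP1 KO cells 0 members passed this threshold with niraparib (0.0136% of all genes), with olaparib (0.803%) or between the drugs (1.07%). The same held for PARP1 KO against WT in DMSO (0.146%), for the genotype by niraparib interaction (8.88%) and for the genotype by olaparib interaction (0.657%).

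NAMPT, the rate-limiting salvage enzyme, rose with olaparib in both genotypes. Its level was 56.9, 55.8 and 55.4 CPM in the WT DMSO libraries, 55.7, 52.1 and 56.3 CPM with niraparib, and 75.3, 69.9 and 68.8 CPM with olaparib. All 3 olaparib libraries lay above all 6 others of WT. The PARP1 KO levels were 52.9, 51.4 and 60.3 CPM with DMSO, 54.9, 53.1 and 46.3 CPM with niraparib, and 71.1, 64.7 and 64.5 CPM with olaparib. Here too the olaparib libraries did not overlap with the others. Olaparib raised NAMPT 1.28-fold in WT (0.35 on the log2 scale, standard error 0.053, adjusted p = 5.7e-05) and 1.22-fold in PARP1 KO (0.28, standard error 0.071, adjusted p = 0.016, edgeR). The responses of the 2 genotypes differed by -0.06 (95% interval -0.25 to 0.12, adjusted p = 0.78). With niraparib the change was -0.04 in WT (95% interval -0.15 to 0.07) and -0.09 in PARP1 KO (95% interval -0.24 to 0.06), and neither passed. The call in WT held on leaving out any library (adjusted p at most 0.0017), whereas that in PARP1 KO was lost without olaparib library 1 (0.067) or 2 (0.051) and without DMSO library 1 (0.081) or 2 (0.12), at log2 fold changes of 0.23 to 0.30.

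NMNAT2, the cytosolic adenylyltransferase, showed the largest change of a member that passed the test. It had 3.90, 4.87 and 4.46 CPM in the WT DMSO libraries, 7.23, 5.96 and 7.65 CPM with niraparib, and 5.57, 5.23 and 5.49 CPM with olaparib. The niraparib libraries lay above the olaparib libraries, and these above the DMSO libraries, with no overlap. Its rise under niraparib was 0.64 on the log2 scale (standard error 0.13, adjusted p = 0.00037, 1.56-fold; edgeR), and it held on leaving out any library (0.56 to 0.74, adjusted p at most 0.0039). The difference of 0.29 with olaparib did not pass (95% interval 0.02 to 0.57, adjusted p = 0.14). NMNAT2 in the knockout line had 3.78, 5.26 and 5.93 CPM with DMSO, 4.94, 6.09 and 4.24 CPM with niraparib, and 5.80, 5.18 and 3.64 CPM with olaparib. These groups overlapped, and the differences from DMSO were 0.03 with niraparib (95% interval -0.38 to 0.44) and -0.02 with olaparib (95% interval -0.43 to 0.38). The niraparib response was lower in PARP1 KO than in WT by 0.62 on the log2 scale, with an adjusted p of 0.052 (95% interval -1.09 to -0.15), which did not pass. It passed without WT niraparib library 2 (0.022), WT DMSO library 2 (0.044), PARP1 KO niraparib library 2 (0.017) or PARP1 KO DMSO library 1 (0.0095).

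NMNAT3, the mitochondrial adenylyltransferase, rose with both drugs in WT cells. Its WT levels were 8.14, 10.8 and 10.3 CPM with DMSO, 14.4, 12.1 and 12.4 CPM with niraparib, and 11.2, 12.3 and 15.2 CPM with olaparib. Every drug library lay above every DMSO library. Niraparib raised it by 0.40 on the log2 scale (adjusted p = 0.015) and olaparib by 0.39 (adjusted p = 0.032, edgeR), each with a standard error of 0.12. The niraparib call was lost without niraparib library 1 (adjusted p = 0.081). The olaparib call was lost without olaparib library 2 (0.067) or 3 (at 0.26, adjusted p = 0.19) and without DMSO library 1 (0.089) or 3 (0.061), and leaving out in each group the library with the most mitochondrial counts brought the change to 0.15 (adjusted p = 0.32). The 9 PARP1 KO libraries lay between 10 and 12 CPM, with differences from DMSO of 0.07 with niraparib (95% interval -0.13 to 0.27) and 0.03 with olaparib (95% interval -0.17 to 0.23). The genotypes did not differ past the threshold in the niraparib response (-0.34, adjusted p = 0.12) or the olaparib response (-0.36, adjusted p = 0.23).

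NMNAT1, the nuclear adenylyltransferase, had 14.4, 13.7 and 13.1 CPM in the WT DMSO libraries, 17, 15.3 and 16.2 CPM with niraparib, and 13.9, 15.9 and 13.3 CPM with olaparib. The niraparib libraries lay above the DMSO libraries, while the olaparib libraries overlapped with both. The rise with niraparib was 0.23 (standard error 0.085, adjusted p = 0.034, edgeR), and it no longer passed without niraparib library 1 (0.13) or 3 (0.072) or DMSO library 2 (0.075) or 3 (0.13). The PARP1 KO libraries ranged from 11.6 to 17.3 CPM and overlapped between all groups.

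**Figure D3:**
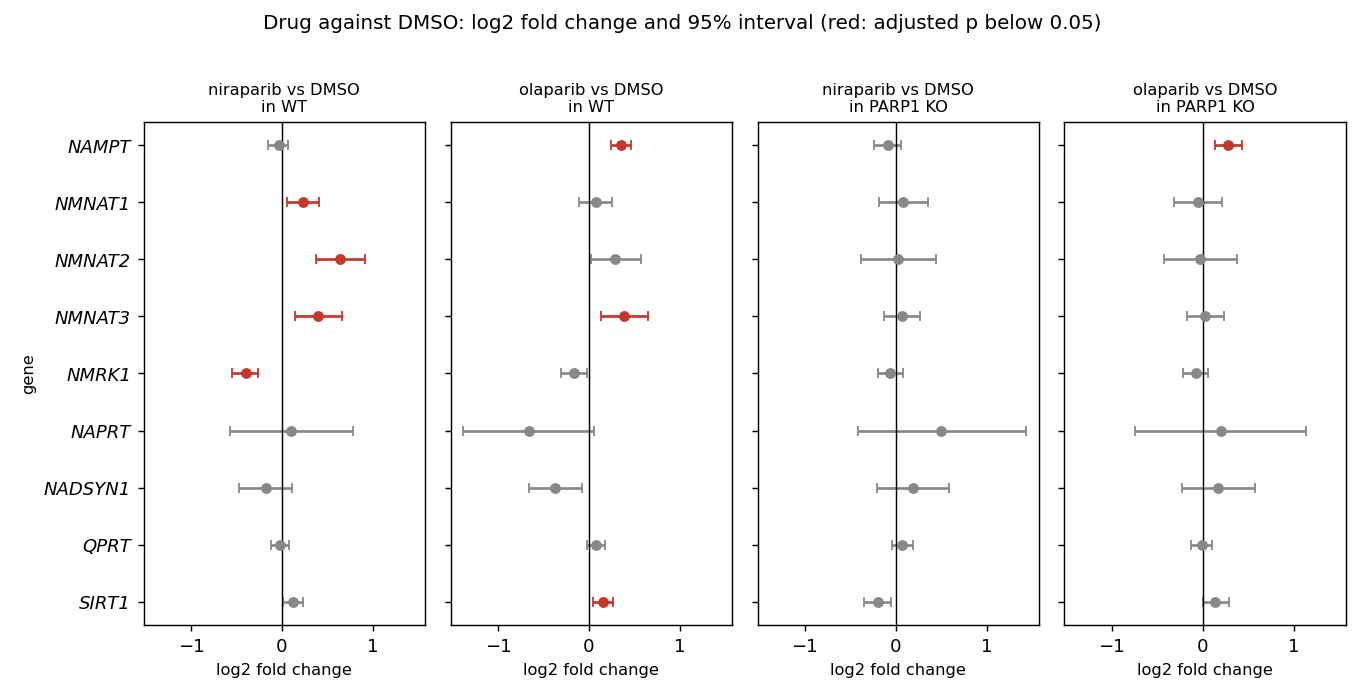
Log2 fold change against DMSO of the 9 tested members (points) with 95% intervals (bars), for each drug in WT and in PARP1 KO cells, with members past an adjusted p of 0.05 in red. NAMPT is to the right of 0 with olaparib in both genotypes, the NMNAT genes are to the right and NMRK1 to the left of 0 with niraparib in WT cells, and the widest intervals belong to NAPRT.

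NMRK1, the nicotinamide riboside kinase, fell with niraparib in WT cells. Its level was 28.1, 30.3 and 32.2 CPM with DMSO, 24, 23.3 and 21.2 CPM with niraparib, and 26, 27.1 and 27.7 CPM with olaparib. The 3 groups did not overlap, with olaparib between niraparib and DMSO. Its change under niraparib was -0.40 on the log2 scale (adjusted p = 6.7e-05, edgeR, standard error 0.07), and it stayed between -0.45 and -0.35 on leaving out any library (adjusted p at most 0.0011). With olaparib it was -0.16 (95% interval -0.31 to -0.02, adjusted p = 0.11), which did not pass, and which ranged from -0.21 to -0.12 on leaving out 1 library. It passed without DMSO library 1 (-0.21, adjusted p = 0.035) and without the library of the highest mitochondrial share in each group (-0.24, 0.011). The PARP1 KO libraries had 28.6, 27.9 and 29.9 CPM with DMSO, 29.2, 26.4 and 27.2 CPM with niraparib, and 27.6, 26.2 and 28.3 CPM with olaparib, and all 3 groups overlapped. The niraparib response differed between genotypes by 0.34 on the log2 scale (PARP1 KO minus WT, standard error 0.095, adjusted p = 0.0075, edgeR), and it passed on leaving out any of the 12 libraries of that comparison (0.27 to 0.38, adjusted p at most 0.049). The olaparib response did not differ past the threshold (0.09, 95% interval -0.10 to 0.29).

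NAPRT, which opens the route from nicotinic acid, was the member with the widest spread between libraries of a group. Its coefficient of variation within a group ran from 8.7% to 52.9%, with a median of 35.5%, whereas that of NAMPT was at most 8.81%. It had 4, 2.69 and 2.84 CPM in the WT DMSO libraries, 2.41, 5.33 and 2.20 CPM with niraparib, and 1.87, 1.92 and 2.19 CPM with olaparib. The niraparib group held both values near those of olaparib and the highest value of all 18 libraries, so that no change with niraparib could be resolved (0.10 on the log2 scale, 95% interval -0.57 to 0.78). The olaparib libraries lay below the DMSO libraries, at -0.66 (95% interval -1.38 to 0.06, adjusted p = 0.21, edgeR), which did not pass. This difference passed in edgeR without a filter on low counts (0.0067) or without the libraries of the highest mitochondrial share (-0.55, 0.044). In WT the latter were also the libraries highest in NAPRT. Without PARP1 the level was 3.34, 2.94 and 1.44 CPM with DMSO, 3.19, 2.68 and 4.88 CPM with niraparib, and 1.92, 2.72 and 4.29 CPM with olaparib, with overlap between these 3 groups.

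NADSYN1, the amidating enzyme at the end of the nicotinic acid and tryptophan routes, also spread within groups, with a coefficient of variation of up to 20.7%. In WT cells its level was 55.5, 44.8 and 46.8 CPM with DMSO, 36.4, 51.4 and 41.0 CPM with niraparib, and 38.7, 35.4 and 39.4 CPM with olaparib. The olaparib libraries lay below the DMSO libraries (-0.37, 95% interval -0.66 to -0.07, adjusted p = 0.087, edgeR), which did not pass here but passed in DESeq2 (adjusted p = 0.0035) and in edgeR without a filter on low counts (7.3e-06). With niraparib the difference was -0.18 (adjusted p = 0.31). Leaving out 1 library moved it from -0.34 (adjusted p = 0.0033), a pass, without niraparib library 2 to -0.09 without DMSO library 1 (0.66) or niraparib library 1 (0.60). The PARP1 KO libraries had 40.8, 41.7 and 37.3 CPM with DMSO, 39.9, 43.2 and 52.9 CPM with niraparib, and 35.7, 45.0 and 54.3 CPM with olaparib, with overlap between all groups.

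For both genes the highest library of a group was also the one with the largest share of counts on mitochondrial genes in 5 of 6 groups, the exception being PARP1 KO DMSO. There library 3 had the largest share (5.02%) and the lowest level of the group in both genes (NAPRT 1.44 CPM, NADSYN1 37.3 CPM). Each group held 1 library with at least 5.02% of its counts on mitochondrial genes, and the other 12 libraries had at most 4.93%. In WT niraparib library 2 the share was 5.22%, with NAPRT at 5.33 CPM, 2.43 times the lowest library of the group. Without these 6 libraries, NADSYN1 in WT was lower with niraparib by 0.24 (adjusted p = 0.0012) and with olaparib by 0.30 on the log2 scale (adjusted p = 0.00022), and NAPRT was lower with olaparib by 0.55 (adjusted p = 0.044, edgeR). This choice of libraries was made after the data were seen. In WT the libraries left out were also the highest of each group in both genes, so leaving them out narrows the spread by itself. The smaller p-values are therefore no independent support for a fall. The part of the mitochondrial share in the results on these genes was not tested further.

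**Figure D4:**
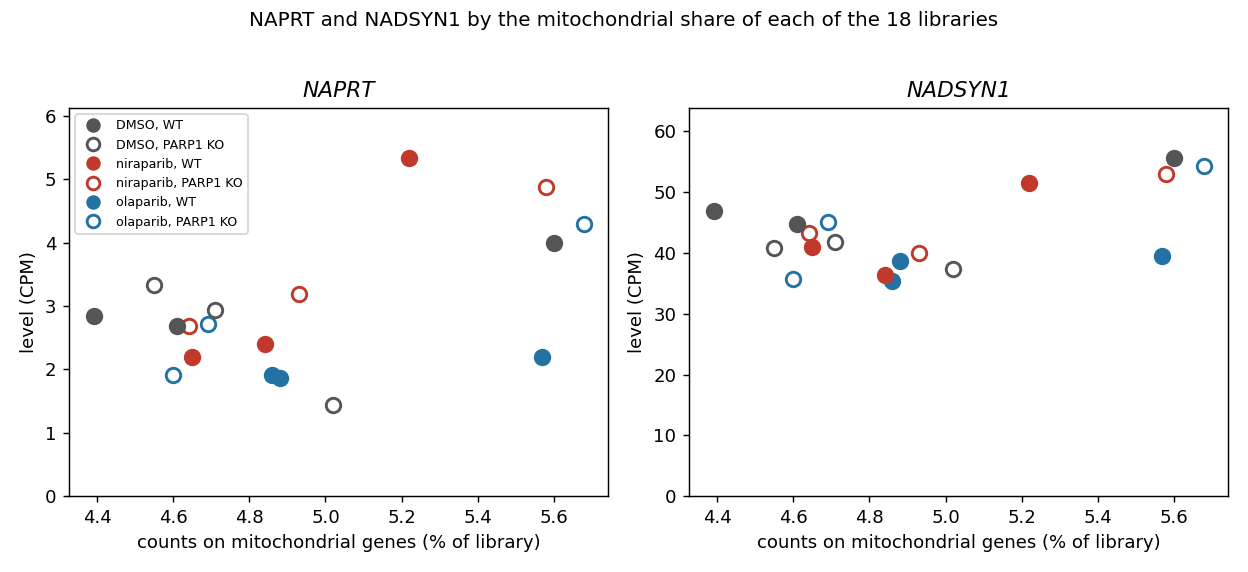
Level of NAPRT and NADSYN1 in CPM against the share of counts on mitochondrial genes, 1 point for each of the 18 libraries (filled WT, open PARP1 KO). Libraries with NAPRT at 4 CPM or more all have a mitochondrial share of at least 5.22%, while WT olaparib library 3 has a share of 5.57% and 2.19 CPM. PARP1 KO DMSO library 3 has a share of 5.02% and the lowest NAPRT level, 1.44 CPM.

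QPRT, on the tryptophan route, had the group means that varied least among the tested members. Its level lay between 118 and 136 CPM in all 18 libraries, and its group means spanned 0.09 on the log2 scale. The difference from DMSO in WT was -0.02 with niraparib (95% interval -0.12 to 0.08) and 0.08 with olaparib (95% interval -0.02 to 0.18). In PARP1 KO it was 0.07 with niraparib (95% interval -0.04 to 0.19) and -0.01 with olaparib (95% interval -0.13 to 0.10). These intervals leave room for changes of no more than 0.19 on the log2 scale in either direction.

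SIRT1, the NAD-consuming deacetylase, had niraparib responses that differed between the genotypes. In WT cells it had 43.2, 43.0 and 42.4 CPM with DMSO, 44.7, 47.2 and 48.0 CPM with niraparib, and 49.1, 46.6 and 47.4 CPM with olaparib. All 6 drug libraries lay above the DMSO libraries. The knockout line had 43.0, 39.2 and 41.5 CPM with DMSO, 35.9, 35.8 and 35.9 CPM with niraparib, and 50.0, 46.9 and 39.6 CPM with olaparib. The niraparib libraries lay below all others of that genotype, while olaparib and DMSO overlapped. The difference between niraparib and DMSO was 0.12 on the log2 scale in WT (adjusted p = 0.079) and -0.20 in PARP1 KO (adjusted p = 0.39), and neither passed within its genotype. The difference between these responses did pass, at -0.32 on the log2 scale (PARP1 KO minus WT, standard error 0.09, adjusted p = 0.0071, edgeR), and passed on leaving out any library (-0.38 to -0.29, adjusted p at most 0.026). In WT cells it rose under olaparib by 0.16 (adjusted p = 0.04, edgeR, standard error 0.053). It was lost without olaparib library 1 (0.18), 2 (0.055) or 3 (0.093) and without DMSO library 2 (0.08) or 3 (0.12). In PARP1 KO the olaparib difference of 0.14 did not pass (adjusted p = 0.26). It was 0.07 without olaparib library 1 (0.64), and it passed at 0.23 without olaparib library 3 (0.031) and at 0.23 without the library of the highest mitochondrial share in each group (0.021).

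The drugs were also compared directly, at the same dose and time. In WT cells, 3 of the 9 members differed between niraparib and olaparib, where 32.2% of all genes did. NAMPT was lower with niraparib (-0.39, standard error 0.053, adjusted p = 5.2e-06), as was NMRK1 (-0.24, standard error 0.07, adjusted p = 0.011), and NMNAT2 was higher (0.35, standard error 0.13, adjusted p = 0.044; edgeR). NMRK1 no longer passed without olaparib library 3 (0.055) or niraparib library 3 (0.075). NMNAT2 no longer passed without any of the olaparib libraries 1 (0.08), 2 (0.13) and 3 (0.092) or without niraparib library 1 (0.13) or 3 (0.18). NMNAT3 showed no difference between the drugs beyond its spread (0.00, 95% interval -0.25 to 0.26), and neither did SIRT1 (-0.04, 95% interval -0.15 to 0.07). NAPRT was 0.76 higher with niraparib without passing in edgeR (adjusted p = 0.10), passed in DESeq2 (0.03), and passed in edgeR without a filter on low counts (0.00045) or without niraparib library 1 (0.046) or 3 (0.013). Without niraparib library 2 the NAPRT difference shrank to 0.21 (adjusted p = 0.54). Among PARP1 KO libraries, 2 of 9 members differed, against 10% of all genes: NAMPT (-0.37, standard error 0.071, adjusted p = 0.0019) and SIRT1 (-0.34, standard error 0.072, adjusted p = 0.0039, edgeR), both lower with niraparib. Both passed on leaving out any library, with adjusted p at most 0.012 for NAMPT and 0.035 for SIRT1. The niraparib and olaparib libraries of both genes did not overlap in PARP1 KO cells.

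Without drug, no member passed between the genotypes. In PARP1 KO against WT in DMSO, 0 of 9 members passed, and 0 with DESeq2, against 1.39% of all genes in edgeR. At an unadjusted p below 0.05 in edgeR also 0 passed, against 13.6% of all genes. Intervals were narrow for QPRT (-0.11 to 0.10), NAMPT (-0.16 to 0.10), SIRT1 (-0.19 to 0.07) and NMRK1 (-0.20 to 0.07), and wide for NAPRT (-1.19 to 0.61). For NADSYN1 the PARP1 KO DMSO libraries lay below the WT DMSO libraries, at -0.29 on the log2 scale (95% interval -0.65 to 0.06, adjusted p = 0.46, edgeR). For the response to niraparib, 2 of 9 members differed between genotypes (NMRK1 and SIRT1, above), against 22.9% of all genes. For the response to olaparib, 0 of 9 did (0 also with DESeq2), against 2.27% of all genes. At an unadjusted p below 0.05 in edgeR 2 of 9 passed, against 15.7% of all genes. The 2 were NMNAT3 and NADSYN1, the latter at 0.54 (95% interval 0.04 to 1.04, adjusted p = 0.28).

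Other genes of NAD metabolism were taken from 6 lists of 35 genes, of which 28 were tested. With niraparib in WT cells 9 of these rose and 7 fell, where 38% of all genes passed, and with olaparib 5 rose and 2 fell, where 19% of all genes passed. Their median log2 fold change was 0.07 with niraparib and -0.02 with olaparib, beside -0.03 and -0.02 over all genes. Without PARP1, 0 passed with niraparib, against 0.109% of all genes, and 1 passed with olaparib, against 8.29%. At an unadjusted p below 0.05 in edgeR, 2 of these 28 genes passed with niraparib there, against 9.14% of all genes. Several were at or near 0: of the tryptophan route, IDO1 had 2 counts and IDO2 had 3 counts in all 18 libraries together, and HAAO and ACMSD had none. NMRK2, the paralog of NMRK1, and NT5E also had none.

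On the tryptophan route 4 of 8 genes were tested. With niraparib in WT cells, where 38% of all genes passed, 2 rose (KMO and KYNU, which act on kynurenine) and 1 fell. The latter was AFMID, which forms kynurenine and is named after its values were seen. It had 26.6, 27.8 and 23.8 CPM with DMSO and 22.5, 22.3 and 22.8 CPM with niraparib (-0.21, adjusted p = 0.018, edgeR), a call that was lost without DMSO library 2 (0.12). KMO, which hydroxylates kynurenine, had 1.13, 1.12 and 1.99 CPM with DMSO and 5.12, 4.58 and 5.23 CPM with niraparib. With olaparib it had 1.24, 0.894 and 1.52 CPM. The niraparib libraries lay above all others, at 1.80 on the log2 scale (3.49-fold, standard error 0.21, adjusted p = 5.3e-07), against -0.22 with olaparib (adjusted p = 0.60; edgeR). KMO in PARP1 KO cells had 1.34, 2.58 and 2.23 CPM with DMSO and 1.33, 1.69 and 0.97 CPM with niraparib, which overlapped (-0.62, adjusted p = 0.49). With olaparib KMO had 1.46, 0.972 and 1.06 CPM there, which also overlapped with DMSO. That difference of -0.81 did not pass (adjusted p = 0.071, edgeR), but passed without a filter on low counts (0.025) and without DMSO library 1 (-1.05, 0.031), and had an adjusted p of up to 0.31 on leaving out another library. KYNU, which cleaves kynurenine and hydroxykynurenine, had 60.0, 72.9 and 75.6 CPM with DMSO and 100, 104 and 118 CPM with niraparib in WT cells (0.62, standard error 0.087, adjusted p = 9.8e-05). For KYNU the PARP1 KO libraries with DMSO (75.1 to 83.0 CPM) and with niraparib (74.2 to 79.2 CPM) overlapped. QPRT, which acts further along the same route, had no such difference (above).

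SLC7A5, a carrier of large neutral amino acids that takes up tryptophan, rose with both drugs in WT cells, by 0.60 on the log2 scale under niraparib (adjusted p = 8.9e-10) and 0.28 under olaparib (adjusted p = 0.00019), with a standard error of 0.046 for each. Its WT libraries had 427 to 455 CPM with DMSO, 658 to 693 CPM with niraparib and 519 to 543 CPM with olaparib, with no overlap. NNT, the mitochondrial transhydrogenase that passes hydride from NADH to NADP, fell by 0.77 with niraparib in WT cells (standard error 0.05, adjusted p = 6.2e-11), from 376 to 383 CPM with DMSO to 211 to 240 CPM. With olaparib it had 364 to 366 CPM. NNT in PARP1 KO cells had 356 to 385 CPM with DMSO and 288 to 323 CPM with niraparib, a difference of -0.25 without overlap of the libraries. It did not pass here (adjusted p = 0.087), but passed in DESeq2 (0.017), in the edgeR fit of all 18 libraries (0.022) and without a filter on low counts (0.00067). NNT was also lower with niraparib than with olaparib in PARP1 KO cells (-0.25, standard error 0.057, adjusted p = 0.0067, edgeR), which passed on leaving out any library (at most 0.045). MAT2A, which makes the methyl donor that NNMT uses, was lower in WT cells under niraparib (-0.51 on the log2 scale, adjusted p = 0.00033) and under olaparib (-0.77, adjusted p = 4.5e-05). In PARP1 KO cells its changes of -0.17 (adjusted p = 0.82) and -0.39 (0.23) did not pass, though the olaparib libraries lay below the DMSO libraries. Its responses did not differ between genotypes past the threshold with niraparib (adjusted p = 0.28) or olaparib (0.37, edgeR). SARM1, an NAD-cleaving enzyme best known from axons, was low at a mean of 3.1 CPM and fell in WT cells under niraparib (-0.88 on the log2 scale, adjusted p = 0.023) and under olaparib (-1.06, adjusted p = 0.02, edgeR), with standard errors of 0.28 and 0.29. WT DMSO library 1, with 6.70 CPM against 3.24 and 3.71 CPM in the other DMSO libraries and a mitochondrial share of 5.6%, moved both SARM1 differences by more than 1.5 times. Without it they were -0.51 with niraparib (adjusted p = 0.053), a lost call, and -0.69 with olaparib. The niraparib call was also lost without niraparib library 1 or 3 (adjusted p at most 0.081) and in the fit of all 18 libraries (0.06), and the olaparib call without any of the 3 olaparib libraries (at most 0.088) and in the fit of all 18 libraries (0.052).

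**Figure D5:**
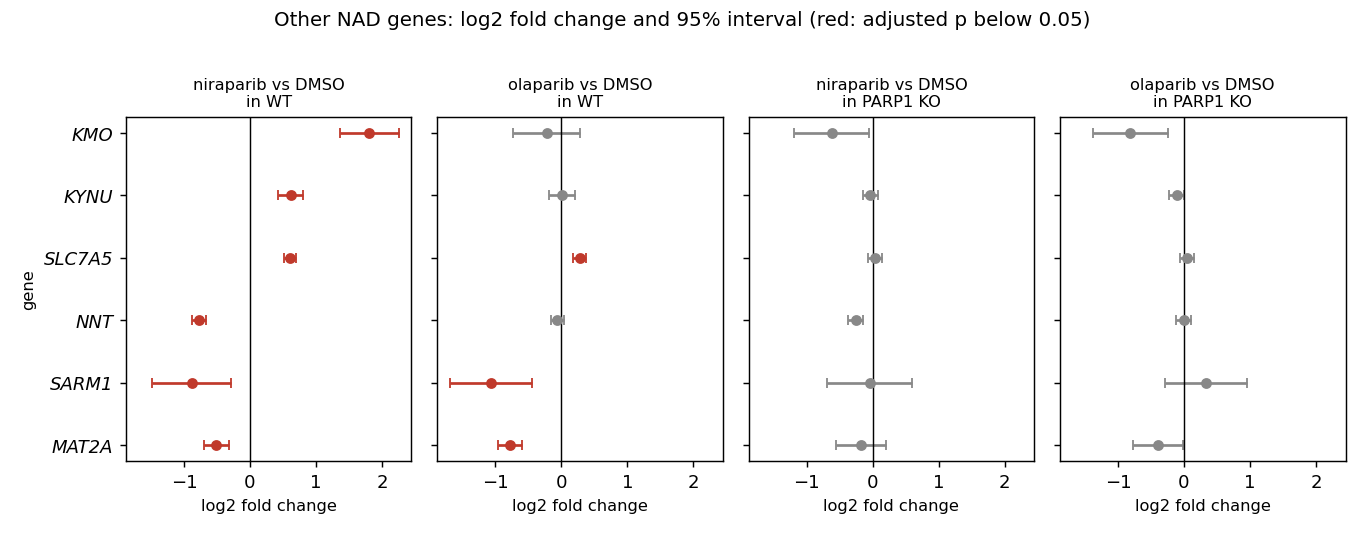
Log2 fold change against DMSO (points) with 95% intervals (bars) of the 6 other NAD genes named, for each drug in each genotype, with genes past an adjusted p of 0.05 in red. With niraparib in WT cells all 6 are red, from 1.80 for KMO to -0.88 for SARM1, and in PARP1 KO cells all 6 are grey with either drug.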

How the data were processed

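Polyadenylated RNA was sequenced by the authors. They deposited raw counts of reads on exons per gene, made by trimming with Trimmomatic, mapping to GRCh38 with STAR, Picard MarkDuplicates and featureCounts 2.0.0 on the annotation of Ensembl release 96 (reverse strand, primary alignments). The deposited count files are named as deduplicated, while the methods do not say that marked duplicates were removed, and labels and methods differ on RNA input, medium and extraction kit. Reads on exons of more than 1 gene were not counted. Symbols were matched for 58472 of 58884 identifiers.

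Members and lists were chosen with earlier results of these data known, and p-values adjusted over the lists alone are not given. Groups came from the sample labels. edgeR 4.0.16 (R 4.3.3) was run on each gene that had over 10 counts summed across the fitted libraries, with TMM factors, robust dispersions, the quasi-likelihood F test (two-sided) and Benjamini-Hochberg adjustment. Each genotype was fitted on its own 9 libraries, and genotype contrasts and interactions used all 18. Standard errors were obtained from the fold change and its F statistic. The biological coefficient of variation was 7.04% for WT and 7.42% for PARP1 KO libraries. The procedure was run on simulated counts of 22008 genes for niraparib in WT, with the same spread for every gene. A log2 change of 1 was given to 200 of the genes above a floor of counts. At an adjusted p below 0.05 with more than 1.5-fold, it found 197 of them and 1 other gene. This does not cover calls made without the fold threshold, smaller changes or genes with a wider spread. Limits from a count of 0 cover counting error only. Besides the 10 members and PARP1, genes of the 6 lists were named at a mean of at least 1 CPM, an adjusted p below 0.05 and more than 1.5-fold in at least 1 of 9 comparisons. Alternatives were RLE size factors, filterByExpr, no filter, DESeq2 1.42.0, a block for the replicate number, a joint fit of all 18 libraries, other thresholds, each library left out in turn and, added after the data were seen, the library with the most mitochondrial counts of each group left out.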

Additional observations from a re-analysis of the deposited data

Results flagged for a closer look

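The response to niraparib differed between genotypes, by the interaction term of the edgeR fit over all 18 libraries, for 6 of the NAD genes described in the report and for PARP1 and TP63. Among the members, the difference (PARP1 KO minus WT, log2 scale) was 0.34 for NMRK1 (adjusted p = 0.0075), which fell in WT and not past the threshold in PARP1 KO, and -0.32 for SIRT1 (adjusted p = 0.0071), for which neither genotype passed alone. Among the other NAD genes, KMO differed by -2.44 (adjusted p = 2.5e-06), KYNU by -0.66 (1e-05) and SLC7A5 by -0.58 (3.7e-08), all of which rose in WT cells. NNT, which fell in WT cells, differed by 0.51 (adjusted p = 3e-06). All 6 of these differences passed on leaving out any of the 12 libraries compared, with adjusted p at most 0.049 (NMRK1). TP63, a basal marker at a low level, differed by -1.11 (adjusted p = 0.0034), and passed on leaving out any library (at most 0.015). PARP1 itself differed by 0.23 (0.023), a call that was lost without 4 of the 12 libraries (at most 0.12), and 5 of the 9 luminal markers also passed. Of the 28 tested genes of the wider NAD lists, 10 passed (4 higher and 6 lower in PARP1 KO), from which the 4 above were named for a change of more than 1.5-fold in at least 1 comparison. Such a difference was called for 22.9% of all genes, and the line that carries the knockout cannot be told apart from the loss of PARP1.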

How the results depend on the processing

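Each of the 81 member results was recomputed under the alternatives. Of 1134 values, 1019 kept their direction and side of the threshold, 32 no longer passed, 22 newly passed and 61 changed sign (45 of them on leaving out 1 library), of which 0 passed in either fit. The cause of these shifts was not tested except where fewer libraries entered. The numbers of members passing, 4, 3 and 3 in WT (niraparib, olaparib, niraparib against olaparib), became 2, 1 and 1 at an adjusted p below 0.01 and 1, 0 and 0 with more than 1.5-fold. At 0.01, 6535, 2561 and 5341 of all 22446 genes passed. The 1 and 2 members of PARP1 KO (olaparib, niraparib against olaparib) and the 2 of the niraparib interaction became 0 with more than 1.5-fold. At 0.01 the 1 with olaparib in PARP1 KO (NAMPT, adjusted p = 0.016) became 0, and the 2 between the drugs there stayed. In these 2 comparisons 704 and 989 of all 22037 genes passed at 0.01. Without a filter on low counts the WT drug contrast had 5, with NAPRT (adjusted p = 0.00045) and NADSYN1 (0.034) newly passing, where 22.6% of all genes passed. In that setting NADSYN1 also passed with olaparib (7.3e-06) and niraparib (0.03) in WT, NAPRT with olaparib in WT (0.0067) and NMNAT2 in the niraparib interaction (0.013), while SIRT1 with olaparib in WT did not pass (0.084). Without the libraries of the highest mitochondrial share olaparib had 5 in WT and 2 in PARP1 KO, where 24.7% and 12.1% of all genes passed. Leaving out 1 library gave 2 to 5, 1 to 3 and 1 to 3 members in WT and 0 to 2 with olaparib in PARP1 KO. The shares of all genes were then 34.6% to 38.6%, 13.1% to 18.8% and 27.2% to 30.5% in WT, and 3.65% to 8.58%.

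Replicate numbers did not pair the libraries, whose same-number deviations correlated between -0.54 and 0.55. With the replicate block, SIRT1 with olaparib in WT (adjusted p = 0.068) and NMNAT2 between the drugs in WT (0.066) no longer passed. In 1 fit of all 18 libraries, NMNAT1 with niraparib (0.088), SIRT1 with olaparib (0.097) and NMNAT2 between the drugs (0.11) in WT did not pass.

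Signs changed for small or widely spread differences. On leaving out 1 library, the differences from DMSO in WT ranged from -0.45 to 0.33 for NAPRT and -0.043 to 0.021 for QPRT with niraparib, and from -0.0059 to 0.13 for NMNAT1 with olaparib, and the drug contrast of NMNAT3 from -0.089 to 0.14. In PARP1 KO with niraparib they ranged from -0.076 to 0.22 for NMNAT1, -0.14 to 0.17 for NMNAT2 and -0.0093 to 0.12 for NMNAT3. With olaparib they ranged from -0.16 to 0.019 for NMNAT1, -0.20 to 0.14 for NMNAT2, -0.0036 to 0.063 for NMNAT3, -0.15 to 0.44 for NAPRT and -0.078 to 0.016 for QPRT. Between the drugs they ranged from -0.021 to 0.28 for NMNAT1, -0.11 to 0.19 for NMNAT2, -0.039 to 0.086 for NMNAT3, -0.12 to 0.18 for NADSYN1 and -0.020 to 0.047 for NMRK1. Between genotypes in DMSO the ranges were -0.10 to 0.014 for NAMPT, -0.072 to 0.098 for NMNAT1, -0.031 to 0.16 for NMNAT3, -0.54 to 0.00047 for NAPRT and -0.027 to 0.018 for QPRT. The interactions ranged from -0.11 to 0.014 (niraparib) and -0.11 to 0.0086 (olaparib) for NAMPT and from -0.082 to 0.078 (olaparib) for SIRT1, which was 0.0025 with filterByExpr. Without the libraries of the highest mitochondrial share, NAPRT stood at -0.27 with niraparib in WT, -0.10 with niraparib and -0.45 with olaparib in PARP1 KO, and 0.18 between genotypes in DMSO. In the same setting NAMPT with niraparib in PARP1 KO was 0.058 and its niraparib interaction 0.041, NMNAT2 was 0.28 with olaparib in PARP1 KO, -0.064 between genotypes and 0.079 in the olaparib interaction, NADSYN1 was -0.038 with olaparib in PARP1 KO and NMNAT3 was -0.042 between genotypes. The values were also 0.0072 for NAMPT with niraparib in WT, 0.039 for NMNAT1 and 0.020 for QPRT with olaparib in PARP1 KO, and 0.069 for SIRT1 in the olaparib interaction.

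Over all genes, the 24 that passed with niraparib in PARP1 KO became 184 without a filter, 97 with DESeq2, 70 in the fit of all libraries, 102 without the libraries of the highest mitochondrial share and 11 with the replicate block. The 344 between genotypes in DMSO became 742 without a filter and 680 with DESeq2, and the 559 of the olaparib interaction became 1094 and 1011. Leaving out 1 library gave 8 to 26 for niraparib in PARP1 KO, 51 to 274 between genotypes and 284 to 899 for the olaparib interaction. In PARP1 KO, the 1827 with olaparib became 792 to 1859, and the 2203 between the drugs became 1142 to 2323.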

Other observations

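The 2 tested members at a mean of at least 1 CPM with the widest range of group means were NAPRT (0.68 on the log2 scale) and NMNAT2 (0.60). Among 13525 genes, the genes whose centred log2 level over the 18 libraries lay closest to that of NAPRT were EME2 (root-mean-square difference 0.15), TMEM198B (0.16) and TUBB3 (0.16), against a median of 0.46. EME2, a subunit of a structure-specific DNA nuclease, ranged from 11.9 to 36.6 CPM. For NMNAT2 they were UBXN10 (0.12), POLE4 (0.13) and SC5D (0.13), against a median of 0.30. The points of such a comparison share libraries and depth.

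Of the 6 other sirtuins, all were tested. In WT cells 1 rose and 1 fell with niraparib (38% of all genes passed), and 1 rose with olaparib (19%). In PARP1 KO cells 0 passed with niraparib (0.109%) or olaparib (8.29%). At an unadjusted p below 0.05 (edgeR) also 0 passed there, against 9.14% and 21.1% of all genes. Of the 3 NAD glycohydrolases, CD38 (0.214 CPM) and BST1 (0.0529 CPM) were close to absent, and of the nicotinamide catabolism list AOX1 had 8 counts in all.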
